A study of Mus musculus with 8 samples.

Results

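The enzymes described here remove superoxide and peroxides: 3 superoxide dismutases (Sod1, Sod2 and Sod3), catalase (Cat) and 6 peroxiredoxins (Prdx1 to Prdx6). They were chosen by name as the classical members of these enzyme families, and all 10 were found among the 50686 gene identifiers of the count table. The cells were mouse embryonic stem cells (mESCs), which are self-renewing cells of the early embryo. They were either wild type (R9wt) or lacked both alleles of the checkpoint gene Rad9 (R9del, Rad9-/-), and were cultured on board a satellite (Space) or in the same kind of payload on the ground (Ground). Culture lasted 1 day (D1) or 5 days (D5), so 8 conditions were sequenced, with 1 library each and no replicate of any condition. Each variable could therefore be compared as 4 libraries against 4, and the spread within each 4 includes the other 2 variables. The devices of the D1 cultures and those of the D5 cultures had a temperature control each, and different cell numbers were seeded, so duration, device group and seeding cannot be told apart. At D5 the seeding also differed between genotypes, but it was the same in space and on the ground. At the end of culture the medium was drained and the cells were fixed inside the devices. In space the fixed cells were then stored cool until the satellite returned, longer for D1 than for D5. Storage and duration therefore cannot be told apart either. Nothing in the sources used here says how many clones the R9del line came from.

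Superoxide dismutases convert superoxide into hydrogen peroxide and oxygen, and hydrogen peroxide is then broken down by catalase, in peroxisomes, or reduced by peroxiredoxins through a reactive cysteine. Most peroxiredoxins are returned to their active form by thioredoxin, and sulfiredoxin (Srxn1) rescues those whose cysteine has been over-oxidised. The members differ in where they work: Sod1 mainly in the cytosol, Sod2 and Prdx3 in mitochondria, Sod3 outside the cell and Prdx4 in the endoplasmic reticulum. In stem cells these enzymes are studied as the first line of defence against the oxidants that respiration and ionising radiation produce.

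Levels are given as CPM, the counts of a gene relative to the total of its library after scaling by edgeR's TMM factors, and totals per library lay between 58238440 and 96416907 counts. Rad9, the targeted gene, stood at 20.8 to 28.6 CPM in the 4 R9del libraries and at 70.3 to 93.4 CPM in the 4 R9wt libraries. Reads of an undeleted part of the gene would still be counted, and the deleted part is not given in the sources used here. The 10 stem cell markers summed to between 4575 and 8183 CPM in all 8 libraries, whereas 10 fibroblast markers summed to at most 69.0 CPM, of which Thy1 reached 38.7, Pdgfra 25.8 and Col1a1 10.4 CPM, while Dcn, Lum, Postn and Col3a1 were at no more than 0.235 CPM. Pdgfra was higher in space than on the ground at D5, at 20.9 against 3.78 CPM in R9wt and 25.8 against 4.91 CPM in R9del. The sum of the 10 fibroblast markers in these pairs was 54.5 against 57.8 CPM in R9wt and 69.0 against 30.7 CPM in R9del. That of 8 primitive and visceral endoderm markers was 123 against 96.2 CPM and 177 against 73.1 CPM. Which cells the Pdgfra transcripts came from was not tested. The 7 blood and macrophage markers summed to 46.3 to 168 CPM on the ground and 56.3 to 197 CPM in space, nearly all from Cd68, and the 4 endothelial markers to 129 to 174 and 219 to 466 CPM, nearly all from Pecam1, which mESCs also express. Counts of the mitochondrial genome made up 1.12% to 3.39% of each library. Because RNA came from bulk cultures, fewer cells of a kind and less RNA per cell cannot be told apart.

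Promoters (250 bases before to 50 bases after the transcription start, GRCm38.p6, RefSeq) were found for 8 of the 10 genes, namely Sod1, Sod2, Cat and Prdx1 to Prdx5. On both strands they were searched for the core of the antioxidant response element, TGACNNNGC, to which Nfe2l2 (Nrf2) binds, for the AP-1 site TGACTCA, for the GC box GGGCGG and for the forkhead site GTAAACA. A match says only that these letters are in the window. The antioxidant response element core was present in 2 of the 8 promoters, those of Sod1 and Prdx1, against 12.4% of all 32851 promoters of this length. A GC box was present in 8 of 8 against 35.7% of all promoters, the AP-1 letters only in Prdx1 against 5.2%, and the forkhead letters in 0 of 8 against 3.65%. In Prdx1 the element core GCTGAGTCA, 133 bases before the start, overlaps 1 of its 2 AP-1 matches. In Sod1 the core GCGTGGTCA lies 56 bases before the start. These 2 promoters are shown because they hold the element, and those of Prdx4 and Cat because these genes separated the genotypes and the culture durations. They lie at chr16:90220512-90220811 (plus strand, Sod1), chr4:116685349-116685648 (plus strand, Prdx1), chrX:155338411-155338710 (minus strand, Prdx4) and chr2:103485104-103485403 (minus strand, Cat). Each is written 5′ to 3′ on the strand of its gene, and capitals mark the element core and the GC boxes.
Sod1: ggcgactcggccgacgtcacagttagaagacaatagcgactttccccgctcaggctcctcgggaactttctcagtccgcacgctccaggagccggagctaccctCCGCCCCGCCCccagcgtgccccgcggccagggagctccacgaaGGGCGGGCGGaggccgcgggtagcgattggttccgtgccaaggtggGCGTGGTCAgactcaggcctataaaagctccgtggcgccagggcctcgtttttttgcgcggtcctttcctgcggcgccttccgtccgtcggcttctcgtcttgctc
Prdx1: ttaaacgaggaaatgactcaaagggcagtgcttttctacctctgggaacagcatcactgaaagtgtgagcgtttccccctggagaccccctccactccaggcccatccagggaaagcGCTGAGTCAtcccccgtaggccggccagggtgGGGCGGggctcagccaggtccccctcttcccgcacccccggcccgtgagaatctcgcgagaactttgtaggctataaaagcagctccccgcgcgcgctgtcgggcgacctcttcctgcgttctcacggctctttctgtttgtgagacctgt
Prdx4: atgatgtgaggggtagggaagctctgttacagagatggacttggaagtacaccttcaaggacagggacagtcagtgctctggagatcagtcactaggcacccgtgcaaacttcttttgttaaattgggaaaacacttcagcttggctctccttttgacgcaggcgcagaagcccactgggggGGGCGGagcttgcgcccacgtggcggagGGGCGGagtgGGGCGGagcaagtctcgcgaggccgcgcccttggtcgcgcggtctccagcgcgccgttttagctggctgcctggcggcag
Cat: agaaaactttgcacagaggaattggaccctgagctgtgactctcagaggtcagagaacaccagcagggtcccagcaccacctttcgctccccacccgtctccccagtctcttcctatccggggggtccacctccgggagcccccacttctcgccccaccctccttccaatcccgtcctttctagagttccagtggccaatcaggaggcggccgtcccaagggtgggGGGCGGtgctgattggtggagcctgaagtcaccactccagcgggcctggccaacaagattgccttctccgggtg

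Per exon length, Sod1 was the most abundant of the 10 transcripts. Its mean was 2959 ± 926 RPKM (CPM per kilobase of exon, SD, n = 8 libraries), above that of Prdx1 (878 ± 251), and it led Prdx1 in 8 of 8 libraries. Prdx1 in turn exceeded Prdx6 (88.7 ± 28.1 RPKM) in 8 of 8 libraries. Next came Prdx2 (71.3 ± 12.6), Prdx4 (68.8 ± 29.9), Sod2 (61.7 ± 11.3), Prdx3 (58.9 ± 10.6), Cat (38.8 ± 13.2) and Prdx5 (28.7 ± 7.38). Neighbours in the middle of this order did not separate: Prdx4 exceeded Sod2 in 4 of 8 libraries and Sod2 exceeded Prdx3 in 5 of 8. Sod3 was last, at a mean of 0.0188 RPKM. Exon lengths are the union of all annotated transcripts in mm9, so the levels of genes with many transcripts are understated. The order of Sod1 and Prdx1 rests on these lengths, 646 and 3043 bases. In CPM, Prdx1 was above Sod1 in every library but Space_R9wt_D1, for example at 3363 against 1166.5 CPM in Ground_R9wt_D5. The cytosolic enzymes Sod1 and Prdx1 were thus the leading transcripts in every condition, and the secreted Sod3 was nearly absent.

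**Figure D1:**
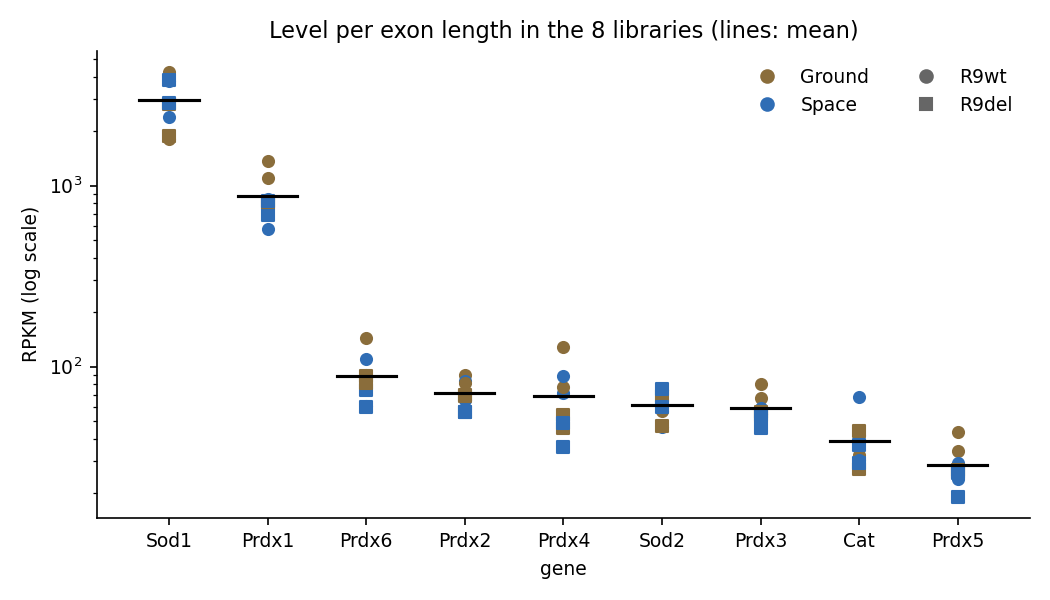
Level of 9 genes per exon length (RPKM, log axis) in each of the 8 libraries, with colour for location, marker shape for genotype and a line for the mean. Sod1 and Prdx1 lie above the other genes in every library, and Prdx4, Sod2 and Prdx3 overlap.

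Sod1, the cytosolic copper and zinc dismutase (ENSMUSG00000022982, mm9 chr16:90220987-90226567, 5 exons), varied 2.35-fold across the libraries. In R9wt cells it stood at 2744.5 CPM on the ground and 2454 CPM in space at D1, and at 1166.5 and 1555.5 CPM at D5. In R9del cells the values were 1821 and 1846 CPM at D1, and 1213 and 2490 CPM at D5, again ground first. The R9wt libraries were thus lower at D5 in both locations, while among R9del libraries only that from the ground was. Of the 50-base stretches of its exons, 20.7% occur elsewhere in the genome, at the pseudogene Gm8566, which was counted at no more than 8.03 CPM.

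Sod2, the mitochondrial manganese dismutase (ENSMUSG00000006818, mm9 chr17:13200705-13210985, 5 exons), was steadier. At D1 it stood at 284 CPM (ground) and 177 CPM (space) in R9wt and at 264 and 228 CPM in R9del. At D5 it stood at 217 and 251 CPM in R9wt and at 179 and 287 CPM in R9del. Space was thus below ground in both D1 pairs and above it in both D5 pairs. Of the 50-base stretches of its exons, 25.5% occur elsewhere in the genome.

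Sod3, the secreted dismutase (ENSMUSG00000072941, mm9 chr5:52755185-52762644, 2 exons), was close to the limit of detection. It had 20 counts in Space_R9wt_D5 (exact 95% Poisson interval 12.2 to 30.9), 9 in Space_R9del_D5 (4.12 to 17.1), 4 in Space_R9del_D1 (1.09 to 10.2) and 0 in the other 5 libraries. For a count of 0 a floor of 3 counts was set, or 0.0335 to 0.0449 CPM in the ground libraries. The exact interval for a count of 0 ends higher, at 3.7 counts. Set against that floor in the matched ground library, the observed CPM was 9.78-fold higher in Space_R9wt_D5, 3.68-fold in Space_R9del_D5 and 1.27-fold in Space_R9del_D1. These ratios leave out the counting error of the space libraries and would be smaller against 3.7 counts. In all, 33 counts fell in 251353678 from space and 0 in 325563927 from the ground, counting error only. The gene was too low for the test, its CPM in 3 space libraries lay between 0.0569 and 0.328, and the fourth space library was at 0.

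Catalase (Cat, ENSMUSG00000027187, mm9 chr2:103294006-103325317, minus strand, 13 exons) stood at 84.5 and 80.2 CPM in R9wt at D1, ground and space, and at 110.0 and 177 CPM at D5. In R9del it stood at 70.8 and 76.9 CPM at D1 and at 115 and 96.3 CPM at D5. All 4 D5 libraries were above all 4 D1 libraries, and Space_R9wt_D5 was the highest.

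Prdx1, the abundant cytosolic peroxiredoxin (ENSMUSG00000028691, mm9 chr4:116358149-116373427, 7 exons), had its highest and its lowest value in R9wt cells at D1, 4179 CPM on the ground and 1748 CPM in space. At D5 the R9wt values were 3363 CPM on the ground and 2554 CPM in space. The 4 R9del libraries spanned a narrower range, with 2455 and 2087 CPM at D1 and 2475 and 2502 CPM at D5. Location thus parted the R9wt libraries more than the R9del libraries.

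Prdx4, the peroxiredoxin of the endoplasmic reticulum (ENSMUSG00000025289, mm9 chrX:151758461-151775297, minus strand, 9 exons), varied most of the 9 genes above the filter, with a 3.57-fold range. In R9wt it stood at 271 CPM on the ground and 149.96 CPM in space at D1, and at 162 and 187 CPM at D5. In R9del it stood at 114 and 75.8 CPM at D1 and at 96.5 and 102 CPM at D5. No R9del library reached the lowest R9wt library.

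Prdx6, a glutathione-dependent peroxiredoxin that also has phospholipase activity (ENSMUSG00000026701, mm9 chr1:163170243-163181350, minus strand, 8 exons), was highest in R9wt at D5. Its R9wt values were 332 CPM on the ground and 222 CPM in space at D1, and 532 and 406 CPM at D5. In R9del they were 325 and 274 CPM at D1 and 298 and 219 CPM at D5. From D1 to D5 the level was higher in both R9wt pairs and lower in both R9del pairs.

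The remaining peroxiredoxins kept to narrower ranges. Prdx2, a second cytosolic form (ENSMUSG00000005161, mm9 chr8:87493486-87498733, 6 exons), lay between 170 CPM in Space_R9del_D1 and 276 CPM in Ground_R9wt_D1. Prdx3, the mitochondrial form (ENSMUSG00000024997, mm9 chr19:60939954-60950459, minus strand, 7 exons), lay between 67.9 CPM in Space_R9del_D1 and 119 CPM in Ground_R9wt_D5. Prdx5, found in mitochondria, peroxisomes and cytosol (ENSMUSG00000024953, mm9 chr19:6981187-6984596, minus strand, 4 exons), lay between 41.0 CPM in Space_R9del_D1 and 93.1 CPM in Ground_R9wt_D1. The same library, Space_R9del_D1, was thus the lowest for Prdx2, Prdx3, Prdx4 and Prdx5. Exons of Trmt112 cover 19.1% of those of Prdx5, so reads there could have been assigned to either gene.

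**Figure D2:**
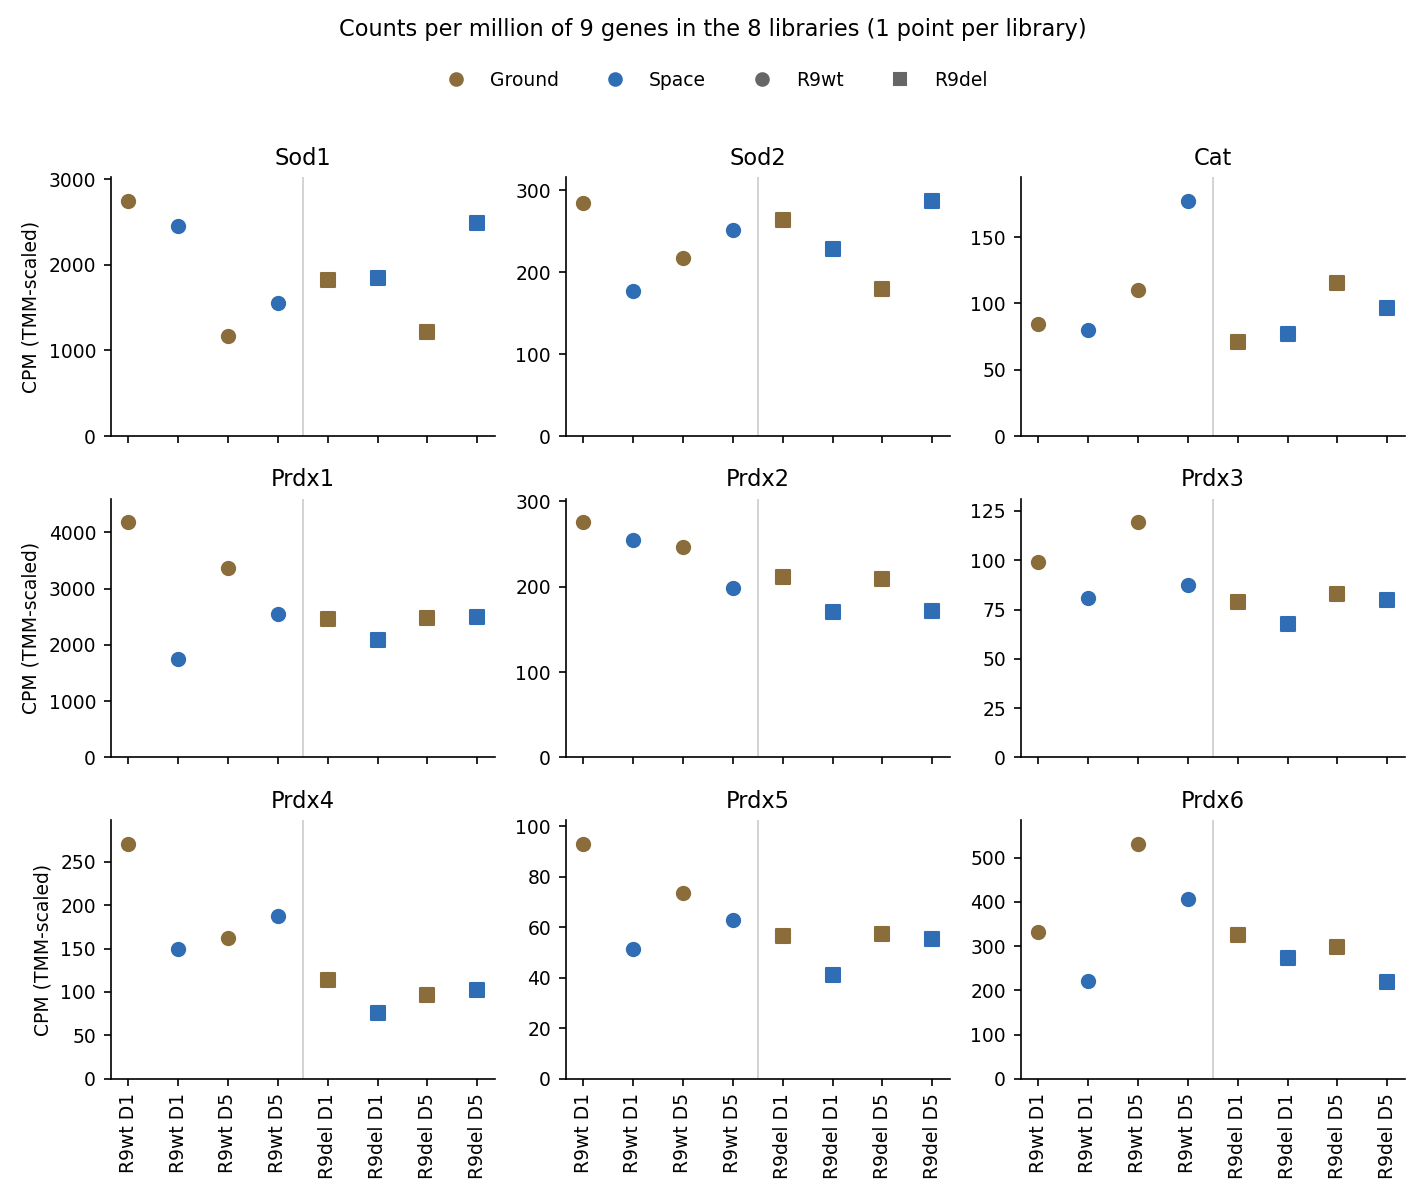
CPM of 9 genes in the 8 libraries, 1 point per library, ground in brown and space in blue, R9wt as circles and R9del as squares, with each axis starting at 0. Prdx4 is lower in every R9del library than in every R9wt library, and Cat is higher in every D5 library than in every D1 library.

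As a measure of how much the members varied, the SD of log2 CPM over the 8 libraries was 0.24 for Prdx3, 0.26 for Prdx2 and 0.28 for Sod2, against a median of 0.48 over the 9732 genes that averaged 10 CPM or more. Prdx4 (0.59) was the only one of the 9 above that median, and Sod1 (0.47) was next. Over the 15 pairs of peroxiredoxins, Pearson's r of log2 CPM ranged from 0.33 (Prdx2 with Prdx6) to 0.90 (Prdx1 with Prdx5), with a median of 0.70. For Prdx6 it was 0.43 with Prdx4, 0.55 with Prdx5 and 0.74 with Prdx3. Sod1 went the other way from Prdx6 (r = -0.66). These are descriptions over 8 libraries that share the study's 3 variables, and no test was made. Searched over the same 9732 genes, the pattern most like that of Prdx3 was Mea1 (r = 0.997), that of Prdx2 Arl2 and Slc4a7 (both 0.981), that of Prdx4 Rragb (0.978) and Stmn2 (0.965), and that of Prdx1 Rbm8a (0.973) and Atp5f1 (0.957). Those nearest to Cat were Tmprss13 (0.961) and Tmem37 (0.959), to Sod1 Slc12a9 (0.959) and Cxadr (0.940), and to Sod2 Dad1 (0.923) and Aifm1 (0.905). Prdx3 also resembled Gm7206 (0.984), Prdx5 resembled Rps15a and Tmem29 (both 0.971), and Prdx6 resembled Rab11fip1 (0.960) and Qdpr (0.953).

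The first comparison asked how culture in space differed from culture on the ground. None of the 9 tested genes passed edgeR's quasi-likelihood test. All 6 peroxiredoxins had a lower fitted level in space, with a median log2 fold change of -0.36 against 0.014 over all 20544 genes tested. Of all genes 49.1% were below 0, and of the 9 members 7 were, with a median of -0.27. At an adjusted p under 0.05, 0 of 9 were called where 6.31% of all genes were. At an unadjusted p under 0.05, 0 of 9 were called against 18.8% of all genes, and DESeq2 called 0 against 21.8%. That count became 1 with the matched pairs as a block, against 22.9% of all genes. It was also 1 without Space_R9wt_D5 (against 16.1%), Ground_R9del_D1 (16.5%) or Ground_R9del_D5 (15.8%). By the study's threshold, a fold of at least 2 with an unadjusted p under 0.05, again 0 of 9 passed against 11% of all genes. No member's space libraries all lay on one side of its ground libraries, as was the case for 14.4% of all genes.

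Within the 4 matched pairs, Prdx2, Prdx3, Prdx5 and Prdx6 were lower in space in 4 of 4, 4 of the 9 genes tested against 18.1% of all genes. Each of the 4 fold changes was less than 2 times its SE. Prdx5 averaged 52.6 ± 9.07 CPM in space and 70.1 ± 17.2 CPM on the ground (SD, n = 4 libraries each), a log2 fold change of -0.41 (SE 0.23, adjusted p = 0.395). Prdx6 averaged 280.1 ± 87.6 and 371 ± 108 CPM (log2 fold change -0.41, SE 0.27, adjusted p = 0.487). Prdx1, with 2223 ± 379 CPM in space and 3118 ± 825 CPM on the ground, had the smallest p (log2 fold change -0.49, SE 0.24, unadjusted p = 0.0647, adjusted p = 0.308). Its direction was lower in 3 of 4 pairs, and in the fourth, R9del at D5, the libraries were level (log2 ratio 0.02). Prdx4 stood at a log2 fold change of -0.32 (SE 0.37, adjusted p = 0.727), and without Ground_R9wt_D1 it was 0.055.

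The dismutases and catalase showed no common direction. Sod1 averaged 2086 ± 461 CPM in space and 1736 ± 735 CPM on the ground (log2 fold change 0.26, SE 0.30, adjusted p = 0.721). Sod2 was level at 236 ± 46.3 and 236 ± 47.3 CPM (log2 fold change 0.00, SE 0.22), with a sign that depended on the scaling. Cat had a log2 fold change of 0.18 (SE 0.30, adjusted p = 0.823), which became -0.172 without Space_R9wt_D5. The share of counts from the mitochondrial genome was also lower in space, 1.12% to 1.82% against 1.20% to 3.39%, and its part in these values was not tested.

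Taken pair by pair, 9 of 9 genes were lower in Space_R9wt_D1 than in Ground_R9wt_D1, with a median log2 ratio of -0.58. The share of all expressed genes lower in that pair is not given here. Ground_R9wt_D1 was the highest of the 8 libraries for Sod1, Prdx1, Prdx2, Prdx4 and Prdx5, and Space_R9wt_D1 the lowest for Sod2 and Prdx1. The sum of the 10 stem cell markers was also lower in that pair, 4575 CPM in space against 8183 CPM on the ground, the lowest and the highest of the 8 libraries, with Sox2 at 84.6 against 254 CPM and Zfp42 at 84.1 against 622 CPM, though Esrrb was higher (111 against 47.7 CPM) and Dppa4 close (150.35 against 168 CPM). The part of these markers in the pair's values was not tested. Prdx1 was 2.39-fold lower there, the only one past 2-fold, which 34% of 17597 expressed genes reached in this pair. In R9wt at D5 (36.1% of genes past 2-fold) and R9del at D1 (21.1%) none of the 9 passed 2-fold. In R9del at D5 Sod1 was 2.05-fold higher in space, where 22.9% of genes passed 2-fold in either direction. Single libraries were compared here, without a replicate check.

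**Figure D3:**
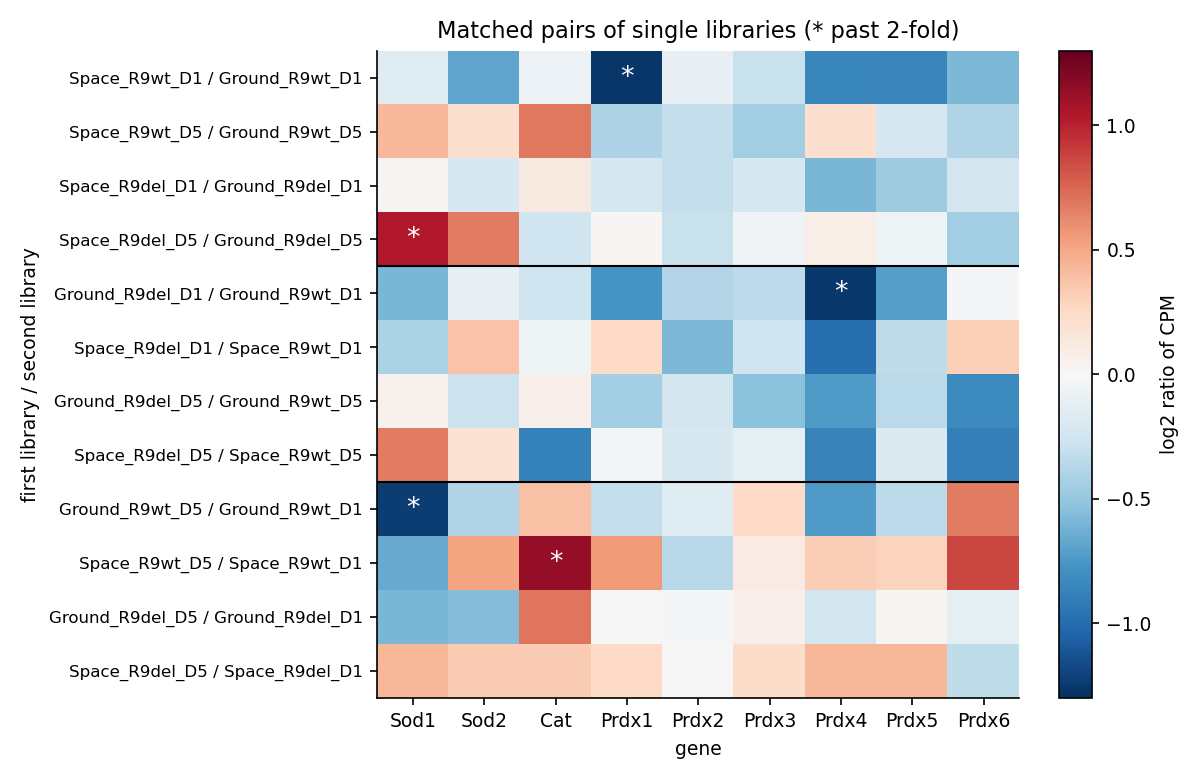
Log2 ratio of CPM for 9 genes (columns) in the 12 pairs of libraries that differ in 1 variable (rows), blue for lower and red for higher in the first library, with an asterisk past 2-fold. The row of Space_R9wt_D1 against Ground_R9wt_D1 is blue throughout, and Prdx4 is blue in all 4 rows that compare R9del with R9wt.

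The second comparison asked what differed between R9del and R9wt cells. Prdx4 showed the largest difference, at 97.2 ± 16.0 CPM in R9del against 192 ± 54.5 CPM in R9wt (SD, n = 4 libraries each), 1.98-fold lower. It was lower in 4 of 4 matched pairs, by a log2 ratio of -1.25 and -0.98 at D1 (ground and space) and of -0.74 and -0.87 at D5. Its log2 fold change was -0.99 (SE 0.25, unadjusted p = 0.0025, adjusted p = 0.0699), which missed the threshold when only the 2 groups were modelled. Blocking by matched pair it passed (-0.96, adjusted p = 0.0191). It also passed with the other variables as covariates (adjusted p = 0.0354) and in DESeq2's Wald test (0.0106). These settings called more genes over all, 1670 with the block, 1481 with the covariates and 2054 in DESeq2, against 371 in the 2-group fit. With 1 library left out at a time the fold change stayed between -1.09 and -0.776, with adjusted p from 0.0861 to 0.207. The R9del and R9wt libraries of Prdx4 did not overlap. An exact two-sided permutation test gave p = 0.0286, the smallest that 4 against 4 can give. That p restates the lack of overlap, which 14.3% of all genes showed, and the test did not use the matched pairs.

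Of the 9 genes, 0 were called at an adjusted p under 0.05 against 1.81% of all genes, and 1, Prdx4, at an unadjusted p under 0.05 against 20.2%. The latter count became 3 without Space_R9wt_D1, against 17.5% of all genes, and 2 with the other variables as covariates, against 27.3%. By the study's threshold 0 passed against 13.8%. With TMM scaling Prdx4 alone separated the genotypes, 1 of 9 against 14.3% of all genes. With DESeq2 size factors or library size alone, 2 of 9 did, against 14.2% and 14.3%. Prdx2, Prdx3, Prdx4 and Prdx5 were lower in R9del in 4 of 4 pairs, 4 of 9 against 19.2% of all genes. The 6 peroxiredoxins all had a fitted value below 0, with a median of -0.39 against -0.063 over all genes. Of all genes 53.8% were below 0, and of the 9 members 8 were, with a median of -0.33. Space_R9wt_D1 bore on these counts: without it, 5 of the 9 did not overlap, Prdx1, Prdx3, Prdx4, Prdx5 and Prdx6, against 17.7% of all genes. Without it, and also without Ground_R9wt_D5, Ground_R9del_D1 or Space_R9del_D1, no gene at all passed the adjusted threshold. The share of counts from the mitochondrial genome was higher in R9del than in R9wt in each matched pair. At D1 it was 3.39% against 2.47% on the ground and 1.82% against 1.37% in space. At D5 it was 2.46% against 1.20% and 1.46% against 1.12%. The part of this share in the genotype differences was not tested.

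The other peroxiredoxins differed by less than Prdx4. Prdx2 averaged 191 ± 22.8 CPM in R9del and 244 ± 32.5 CPM in R9wt (log2 fold change -0.36, SE 0.19, adjusted p = 0.336). Prdx3 averaged 77.3 ± 6.52 and 96.7 ± 16.8 CPM (log2 fold change -0.32, SE 0.20, adjusted p = 0.403). Prdx5 and Prdx6 both had a log2 fold change of -0.42, with adjusted p of 0.365 and 0.433. The log2 fold change of Prdx1 was -0.32 (SE 0.27, adjusted p = 0.548), with R9del libraries within 2087 to 2502 CPM and R9wt libraries from 1748 to 4179 CPM. Sod1 (-0.10, SE 0.32), Sod2 (0.04, SE 0.23) and Cat (-0.33, SE 0.30) all had an adjusted p of 0.571 or more.

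In single pairs only Prdx4 passed 2-fold, 2.38-fold lower in R9del on the ground at D1, where 22.7% of expressed genes passed 2-fold. In that pair, which shares Ground_R9wt_D1 with the first pair of the location comparison, 9 of 9 genes were lower in R9del. For this pair too, the share of all expressed genes that were lower is not given here. In space at D1 (34.3% of genes), on the ground at D5 (31.5%) and in space at D5 (25.3%) none of the 9 passed, although Prdx4 reached 1.98-fold lower in space at D1. Prdx6 was 1.78-fold and 1.86-fold lower in R9del at D5, ground and space, and near level or higher at D1.

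**Figure D4:**
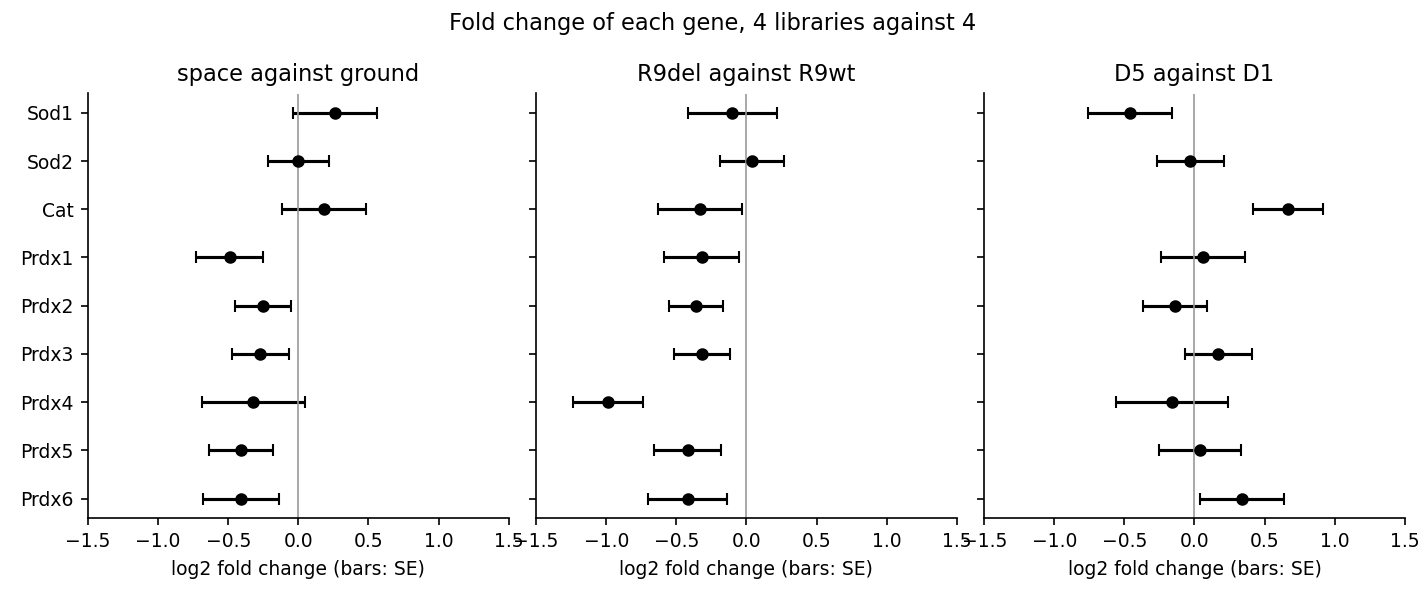
Log2 fold change of 9 genes with its SE (bars) from edgeR's quasi-likelihood fit, 4 libraries against 4, for location, genotype and culture duration. All 6 peroxiredoxins lie below 0 for location and for genotype, with Prdx4 at -0.99 for genotype, and Cat lies at 0.67 for duration.

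The third comparison asked how 5 days of culture differed from 1 day. Cat was the one member that separated the durations, at 125 ± 35.9 CPM at D5 and 78.1 ± 5.81 CPM at D1 (SD, n = 4 libraries each), 1.6-fold higher. It was higher in 4 of 4 pairs, with a log2 fold change of 0.67 (SE 0.25, unadjusted p = 0.0216, adjusted p = 0.9996), so it did not pass after adjustment. The exact permutation p was 0.0286, the smallest possible, which restates the lack of overlap. Without Space_R9wt_D5 the log2 fold change was 0.457, and the unadjusted p was above 0.05 both then and without Ground_R9del_D1. Summed markers of other lineages also differed with duration: 8 primitive and visceral endoderm markers summed to 13.7 to 46.2 CPM at D1 and to 73.1 to 177 CPM at D5. The 5 measured trophoblast markers summed to 14.2 to 67.8 CPM and to 63.1 to 412 CPM, highest in Space_R9wt_D5, where Cat was highest, but in R9del in space they stood at 67.8 CPM at D1 and 63.1 CPM at D5. Dab2 made up 138 of the 177 CPM of the endoderm sum in Space_R9del_D5, and Sox17 stood at 0.142 CPM at D1 and 0.117 CPM at D5 in that pair. Afp and Ttr, markers of later endoderm, were at no more than 1.24 CPM, and the part of these markers in the level of Cat was not tested. The share of counts from the mitochondrial genome was lower at D5 than at D1 in each matched pair. In R9wt it was 1.20% against 2.47% on the ground and 1.12% against 1.37% in space. In R9del it was 2.46% against 3.39% and 1.46% against 1.82%. The part of this share in the level of Cat was not tested either.

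Across all genes, edgeR called 0% at an adjusted p under 0.05, 4.37% at an unadjusted p under 0.05 and 3.49% by the study's threshold, and DESeq2 called 96 genes. Of the 9 members, 0 were called after adjustment (0 in DESeq2), 1 at an unadjusted p and 0 by the study's threshold. Without Space_R9del_D5 the count at an unadjusted p was 2, against 4.76% of all genes. Cat was 1 of 9 without overlap against 2.85% of all genes, and Cat and Prdx3 were higher in 4 of 4 pairs, 2 of 9 against 10.5%. Prdx3 averaged 92.3 ± 18.2 CPM at D5 and 81.8 ± 13.1 CPM at D1, a log2 fold change of 0.17 (SE 0.24), which its error covers. Sod1 averaged 1606 ± 614 and 2216 ± 458 CPM (log2 fold change -0.46, SE 0.30), lower at D5 in 3 of 4 pairs. The other 6 genes lay between -0.16 (Prdx4) and 0.34 (Prdx6).

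In single pairs, Sod1 was 2.35-fold lower at D5 in R9wt on the ground (29.1% of expressed genes past 2-fold), and Cat was 2.21-fold higher at D5 in R9wt in space (27.6%). In R9del, on the ground (12.7%) and in space (14.4%), none of the 9 passed 2-fold. Both pairs past 2-fold were thus from R9wt cells.

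Whether the effect of 1 variable differed with another was tested as an interaction, and no member passed: 0 of 9 for location with genotype (0% of all genes called), for location with duration (0%) and for genotype with duration (0%). At an unadjusted p under 0.05 the counts were 0 of 9 against 2.97% of all genes, 2 of 9 against 6.63% and 1 of 9 against 4.4%. Those with an unadjusted p under 0.05 were Sod2 (log2 interaction 0.88, SE 0.35, unadjusted p = 0.0352) and Prdx4 (0.87, SE 0.33, unadjusted p = 0.0291) for location with duration, both with an adjusted p of 0.72. For genotype with duration it was Prdx6 (-1, SE 0.33, unadjusted p = 0.0159, adjusted p = 0.977). Prdx1, for which location parted R9wt more than R9del, had a log2 interaction of 0.72 (SE 0.37, unadjusted p = 0.0897, adjusted p = 1).

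Genes that work with these enzymes were taken as 5 lists from general knowledge, but with earlier results of these data known. The shares of listed genes called are therefore descriptions, not those of a selection made blind to the data. In space, edgeR called 5 of the 68 listed genes tested (7.35%, close to the 6.31% of all genes), and all 5 were lower, as were 1091 of the 1297 genes called over all. They were Srxn1 and Glrx5 of 21 thioredoxin and peroxiredoxin partners, Prxl2c of 3 peroxiredoxin-like genes, Pex7 of 16 peroxisome biogenesis genes and Hif1a of 11 regulators. Of 17 tested sources of superoxide and hydrogen peroxide, 0 passed, and the smallest p was that of Poldip2 (log2 fold change -0.75, adjusted p = 0.103). The list medians were -0.19 for partners, -0.63 for peroxiredoxin-like genes, 0.00 for sources, 0.08 for peroxisome genes and 0.13 for regulators.

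Pex7, the receptor that imports a class of enzymes into peroxisomes, was the clearest. It stood at 38.8, 38.6, 32.7 and 36.1 CPM in the ground libraries of R9wt D1, R9wt D5, R9del D1 and R9del D5, and at 5.61, 6.24, 4.65 and 4.81 CPM in their space partners (log2 fold change -2.78, SE 0.23, adjusted p = 9.18e-05). Glrx5, a mitochondrial glutaredoxin needed for iron-sulfur clusters, stood at 18.7, 72.8, 9.64 and 38.0 CPM on the ground and at 3.61, 2.42, 1.92 and 3.10 CPM in space (log2 fold change -3.65, SE 0.60, adjusted p = 0.00492). For both, every space library lay below every ground library.

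Srxn1, the sulfiredoxin that repairs over-oxidised peroxiredoxins, stood at 39.0, 19.2, 89.9 and 96.4 CPM on the ground and at 10.3, 19.4, 11.9 and 15.2 CPM in space, in the same order. It was thus lower in space in 3 of 4 pairs and level in R9wt at D5 (log2 fold change -2.11, SE 0.48, adjusted p = 0.0288, and 0.0508 with the pairs as a block). Prxl2c had a log2 fold change of -2.09 (SE 0.44, adjusted p = 0.0182) and Hif1a, the oxygen-regulated transcription factor, of -1.11 (SE 0.27, adjusted p = 0.0415). Pex7 and Glrx5 kept an adjusted p under 0.05 whichever of the 8 libraries was left out. Hif1a lost it without any 1 of the 8 (adjusted p of 0.0521 to 0.105) and without a filter on low counts (0.0663). Hif1a kept it with the block (0.0127) and the covariates (0.0271), where 1740 and 2113 of all genes were called against 1297. Srxn1 lost it without Space_R9wt_D1, Space_R9wt_D5 or any 1 of the R9del libraries (0.0552 to 0.0904). Prxl2c lost it without Space_R9del_D1, Ground_R9del_D5 or Space_R9del_D5 (0.0508 to 0.0583). With 1 library left out, log2 fold changes spanned -1.254 to -0.901 for Hif1a, -2.405 to -1.8 for Srxn1 and -2.403 to -1.806 for Prxl2c.

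**Figure D5:**
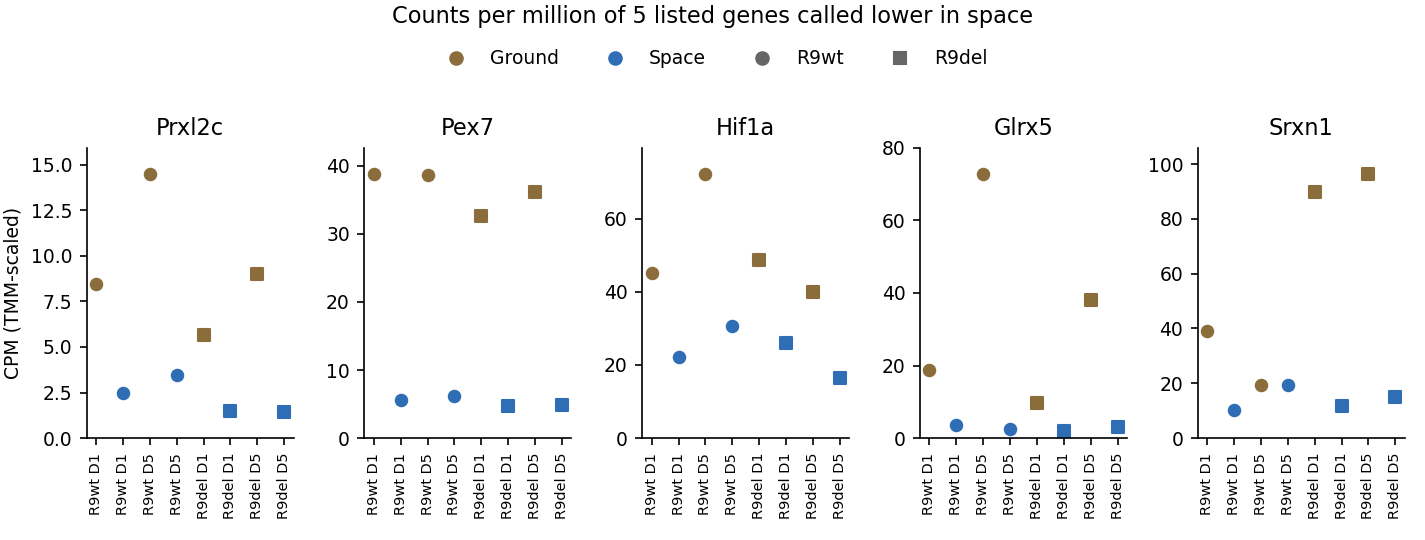
CPM of the 5 listed genes that were called lower in space, in the 8 libraries, 1 point per library, with axes from 0. Every space point lies below every ground point for Prxl2c, Pex7, Hif1a and Glrx5, whereas for Srxn1 the ground library of R9wt at D5 (19.2 CPM) is level with its space partner (19.4 CPM).

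These 5 genes shared a sequence property. The richest 200-base window of their exons held 74.5% to 77.0% G and C, against a median of 67% over the 84.5% of tested genes with an exon model and of 76.0% over the genes called lower in space. In the 10 enzymes it ranged from 58.5% (Prdx3) to 72.5% (Prdx6), all under those 5. The part of base composition in the difference between space and ground was not tested.

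Between genotypes, edgeR called 1 of the 68 listed genes tested (1.47%, close to the 1.81% of all genes). Cybb, the catalytic subunit of the phagocyte NADPH oxidase, was higher in R9del, at 4.43, 2.25, 2.31 and 2.90 CPM (ground D1, space D1, ground D5, space D5) against 0.861, 0.702, 0.391 and 0.524 CPM in R9wt. Its log2 fold change was 2.26 (SE 0.42, adjusted p = 0.0406), and its level was low throughout. Among the fits with 1 library left out, Cybb kept that call only without Ground_R9wt_D1 (adjusted p = 0.0448), and the others gave 0.0612 to 0.124. Without the filter the call was also lost (0.0548). It was kept with DESeq2 size factors (0.0414), library size alone (0.0406), the block (0.0183), the covariates (0.0191) and in DESeq2's Wald test (4.72e-06). Cyba, the partner subunit of Cybb, named here after its values were seen, had a log2 fold change of -1.98 (adjusted p = 0.0554), lower in R9del in 4 of 4 pairs. At an unadjusted p under 0.05, 4 sources were lower and 1 was higher in R9del, 5 of the 17 tested against 20.2% of all genes. Among partners, Txnip, the inhibitor of thioredoxin, had a log2 fold change of -1.52 (adjusted p = 0.0521, 0.0429 with the block and 0.00229 in DESeq2). That of Sesn1, a sestrin, was -1.01 (adjusted p = 0.0874, 0.0315 with the block and 0.02 in DESeq2). The other listed sestrins differed in direction, Sesn2 at 1.07 (adjusted p = 0.189) and Sesn3 at -0.99 (adjusted p = 0.513). Sirt3, the mitochondrial deacetylase that acts on Sod2, had -1.04 (adjusted p = 0.0794, 0.0424 with the block, 0.0155 in DESeq2 and 0.0531 with the covariates). Ppargc1b had -1.04 (0.108, 0.0322 in DESeq2, 0.0681 with the block and 0.0623 with the covariates). The peroxiredoxin-like genes Prxl2a (-1.19, adjusted p = 0.19) and Prxl2b (-0.48, adjusted p = 0.46) did not pass edgeR's 2-group fit. Neither did the peroxisome gene Pex13 (0.52, adjusted p = 0.156). Prxl2a passed with the block (0.0325) and the covariates (0.0289) but not in DESeq2 (0.108). Pex13 passed in DESeq2 (0.0362) but not with the block (0.0768) or the covariates (0.0755). The block, the covariates and DESeq2 called more genes over all, 1670, 1481 and 2054 against 371. The list medians were -0.38 for partners, -0.72 for peroxiredoxin-like genes, -0.15 for sources, -0.20 for peroxisome genes and -0.38 for regulators.

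With duration 0 of the 68 listed genes passed. The smallest p among them belonged to Prxl2a, which was higher at D5 in 4 of 4 pairs (log2 fold change 1.15, SE 0.48, unadjusted p = 0.0381, adjusted p = 0.9996). Nfe2l2, the regulator of the antioxidant response, was also higher in 4 of 4 pairs (0.63, SE 0.31, unadjusted p = 0.0644). The other genes with the lowest p of their list, none under 0.05 before adjustment, had values of 0.75 for Glrx, 1.78 for Glrx5, -0.34 for Prxl2b, 1.15 for Maob, -1.21 for Duox1, 0.56 for Pex26 and -0.65 for Sirt1, all log2 fold changes with an adjusted p of 0.9996. The list medians were 0.24 for partners, 0.66 for peroxiredoxin-like genes, -0.06 for sources, 0.08 for peroxisome genes and 0.13 for regulators.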

How the data were processed

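RNA of 8 mESC cultures was sequenced as mRNA libraries, with paired ends. Per the labels and methods the authors mapped reads to mm9 by TopHat 2.0.9, and they deposited counts per gene as whole numbers, without normalization. The submitters' notes also name FastQC and edgeR. The counting program, the annotation and the use of read strand are not given in the sources used here. Gene symbols were paired with 64.6% of the identifiers, among them all 10 members. The members and lists were chosen with earlier results of these data known.

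Counts were scaled with TMM over all genes and tested with edgeR 4.0.16 (quasi-likelihood test, filterByExpr with a minimum count of 10, Benjamini-Hochberg over all 20544 genes tested), in R 4.3.3, as 2 groups of 4 libraries without covariates. Log2 CPM used a prior count of 2. Scripts were tested on simulated data. Alternatives were DESeq2 size factors, library size alone, no filter, DESeq2 1.42.0, the matched pairs as a block, covariates and each library left out. Pairing came from the conditions in the labels: libraries sharing the other 2 variables deviated together (r of 0.282 to 0.609 for location, 0.349 to 0.488 for genotype, 0.375 to 0.574 for duration). Single pairs were compared among 17597 genes that reached 1 CPM in any library. No group has replicate cultures, so p-values measure the spread between conditions.

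Named genes were the 10 members, every listed gene called at an adjusted p under 0.05 or otherwise the 2 of its list with the smallest p in that comparison, and the 2 genes most like each member. Some genes of this rule are not reported here. Exons and coordinates came from GENCODE on mm9. Promoters came from RefSeq on GRCm38.p6, a different build, and were not compared by coordinate with mm9. Copies were counted as 50-base stretches found elsewhere in mm9.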

Additional observations from a re-analysis of the deposited data

Results flagged for a closer look

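Among 54 groups of 4 libraries examined, 3 held a library far from the other 3. For groups of 4 replicates chance gives about 1 in 20. That rate does not carry over to these groups, which each hold 4 different conditions and share the same 8 libraries. Prdx1 was lowest of the R9del libraries in Space_R9del_D1, at 2087 CPM against 2455 to 2502 CPM, a gap of 0.895 of the range of log2 CPM. Prdx5 was lowest in the same library, at 41.0 CPM against 55.2 to 57.4 CPM (0.884 of the range of log2 CPM). Prdx1 was highest of the D5 libraries in Ground_R9wt_D5, at 3363 CPM against 2475 to 2554 CPM (0.897 of the range of log2 CPM).

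For 5 further patterns the libraries moved in opposite directions in 2 settings. Sod2 differed between space and ground in opposite directions at D1 and D5, and between D5 and D1 in opposite directions in space and on the ground, a log2 interaction of 0.88 (unadjusted p = 0.0352, adjusted p = 0.72). Prdx4 did so in the same 2 ways, with 0.87 (unadjusted p = 0.0291, adjusted p = 0.72). Sod2 was higher in R9del than in R9wt in space and lower on the ground (0.44, unadjusted p = 0.354). Sod1 was lower in R9del at D1 and higher at D5 (0.92, unadjusted p = 0.0771). Prdx6 was higher at D5 than at D1 in R9wt and lower in R9del (-1, unadjusted p = 0.0159, adjusted p = 0.977). None of these interactions passed after adjustment over all genes.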

How the results depend on the processing

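Under every alternative run the number of members called after adjustment was 0 for location and for duration. For genotype it was 1, Prdx4, in DESeq2's Wald test, with the pairs as a block and with the covariates, where 2054, 1670 and 1481 of all genes were called against 371, and 0 otherwise. When 1 library was left out, members whose libraries did not overlap numbered 0 to 2 for location (16.9% to 20.4% of all genes), 1 to 5 for genotype (16.1% to 22.3%) and 1 to 2 for duration (3.93% to 5.7%). They numbered 2 for genotype with DESeq2 size factors (14.2% of all genes) or library size alone (14.3%), and all of these settings for this count were chosen after seeing the data. Members past 2-fold with an unadjusted p under 0.05 numbered 0 to 1 for genotype without 1 library (11% to 16.6% of all genes). For location, the log2 fold change of Sod2 was 0.042 with DESeq2 size factors, 0.072 with library size alone and 0.056 in DESeq2, and -0.113 to 0.114 without 1 library, where Prdx4 spanned -0.555 to 0.055 and Cat -0.172 to 0.310. For genotype, Sod1 spanned -0.289 to 0.095 and Sod2 -0.067 to 0.160. For duration, Sod2 spanned -0.147 to 0.080, Prdx4 -0.380 to 0.275, Prdx1 -0.094 to 0.377 and Prdx5 -0.107 to 0.326. The interaction of Prdx3 for location with duration was -0.018 with library size alone. Among the alternatives run no other result turned its sign, and the cause of these shifts was not tested. No paired analysis was possible by replicate number because each condition has 1 library, so pairs were blocked by condition. The listed genes were put through the same alternatives after seeing the data. Of the 10 members only Sod3, and of the 72 listed genes 4, were too low to be tested.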
